A study of Drosophila melanogaster with 6 samples.

Results

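The brush border and apical cytoskeleton genes described here are 8 genes of the 17321 in the table, namely Myo31DF, Myo61F, Moe, Cad99C, kst, alpha-Spec, beta-Spec and qua. They were chosen by name, as class I myosins, a membrane-actin linker, a protocadherin, spectrins and a villin relative, with earlier results of these data known. Together they have 12 transcripts in the table, and for each gene the transcript with the highest mean was used. Their RNA was measured by RNA-seq in enteroblasts (EBs), the undifferentiated daughters of intestinal stem cells in the adult midgut of Drosophila melanogaster. There were 3 control and 3 Sox21a libraries, each from a pool of flies labelled as a biological replicate. All flies were females aged 16 to 18 days, kept at 25 °C, and all carried Su(H)GBE-Gal4 with UAS-CD8::GFP, a reporter driven by a Notch-responsive enhancer. GFP-positive cells were isolated by FACS, and the labels name the anterior midgut as their source. The control flies are wild-type by the labels and Sox21a/+ by the methods, so they may carry 1 mutant copy. The Sox21a flies were homozygous for a small deletion that shifts the reading frame within the HMG domain of this SOX transcription factor.

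The brush border is the dense array of microvilli on the apical face of absorptive enterocytes, the cells that many EBs become. Each microvillus holds a core of parallel actin filaments joined by bundling proteins such as villin and fimbrin. Class I myosins and the ezrin, radixin and moesin family tie that core to the membrane. Below the microvilli, spectrin tetramers of alpha and beta subunits form a mesh under the membrane, in which beta-heavy spectrin marks the apical side and conventional beta spectrin the lateral and basal sides.

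The deposited values, called normalized reads below, are transcript reads over a size factor. Within a library they come in whole steps, the smallest being 2 steps, and the libraries held between 37286049 and 45955837 steps in all. A level of 5 steps or less, 4.92 to 5.58 normalized reads, was taken as the detection limit. Sox21a transcript itself ranged from 14123 to 17337 in control and from 14474 to 19025 in Sox21a EBs (log2 fold change -0.01, adjusted p = 0.98, limma), so RNA level did not check the genotype labels. Control replicate 1 stood apart somewhat, with a median absolute log2 difference of 0.371 and 0.357 from the other controls, against 0.214 between those 2. Progenitor markers were abundant in every library, their sum lying between 77857 and 98346 in control and between 40690 and 55009 in Sox21a EBs, and 3 of 8 fell. The summed level of 9 enterocyte markers was 35009 to 71362 in control and 11576 to 18132 in Sox21a EBs, with 5 of the 8 tested falling and 0 rising. Enteroendocrine markers summed to 783 to 1225 in control and 2261 to 5953 in Sox21a EBs, with 2 of the 7 tested higher (1 after rescaling) and 1 lower. Tracheal markers summed to 700.3 to 972 in control and 1889 to 2585 in Sox21a EBs (3 of 4 tested higher, 2 after rescaling). Most of the tracheal sum was btl, with means of 767 and 1889. The paper reports a btl reporter in some Sox21a EBs but never in intestinal cells of wild-type midguts. Gasp went from 2.81 to 314 and trh from 20.8 to 42.8, while serp, verm and pio averaged at most 18.9 in either group. Whether the sorted cells held more tracheal cells was not tested. Visceral muscle markers summed to 61.0 to 122 in control and 150 to 157 in Sox21a EBs (1 of 3 tested higher). Haemocyte markers summed to 241 to 280.3 in control and 111 to 133 in Sox21a EBs, where srp was the only one tested and was lower. Nearly all of that sum was srp, with means of 241 and 103, while Hml, Pxn, NimC1, eater and He averaged at most 7.06 in either group. Ovary markers summed to 154 to 183 and 335 to 440 (2 of 2 tested higher, but 1 with the replicate block or after rescaling, where nos had an adjusted p of 0.053 and 0.17, its call also being lost with any 1 library left out), with osk, Yp1, Yp2, Vm26Aa, Vm34Ca and Cp36 at or under the detection limit in every library. Of the ovary markers bam went from 12.3 to 168 and nos from 140 to 194, while vas averaged at most 4.88 in either group. Beside these marker counts, 24.2% of all genes tested were higher and 10.2% lower at an adjusted p under 0.05 (limma). The shares were 17.2% and 15.1% after rescaling, and 26.0% and 10.8% with the replicate block. The part of these other cell types in the results below was not tested, and in sorted bulk samples fewer cells of a type and less RNA per cell cannot be told apart.

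Of the 8 genes, 2 were higher (Moe and Cad99C), 2 were lower (Myo31DF and alpha-Spec) and 4 were not called in Sox21a EBs at an adjusted p under 0.05 (limma on log2(value + 1), Benjamini-Hochberg over 11400 transcripts). Among all 9571 genes tested, each by its transcript of highest mean, 24.2% were called higher and 10.2% lower. The groups did not overlap for the same 4 genes, 2 with Sox21a above and 2 below, where 35.8% of all genes tested lay wholly above and 15.2% wholly below. The median log2 fold change of the 8 genes was -0.38. That of all genes tested, each by its transcript of highest mean, was 0.24, and that of all tested transcripts was 0.21. Both whole-table medians hold under the deposited scaling. Their cause was not tested, since the rescaling below brings them near 0 by design. Each library was then rescaled by its median ratio to the geometric mean over expressed transcripts (those averaging 100 or more). The median was then 0.02 over all tested transcripts, 0.05 over all genes tested and -0.58 over the 8 genes. Under that rescaling 0 of the 8 genes were called higher and 2 lower, while 17.2% of all genes were called higher and 15.1% lower. A fit with the replicate number of the labels as a block called 2 higher and 1 lower (26.0% and 10.8% of all genes), and rescaling with the block called 1 higher and 3 lower (17.2% and 15.4%).

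**Figure D1:**
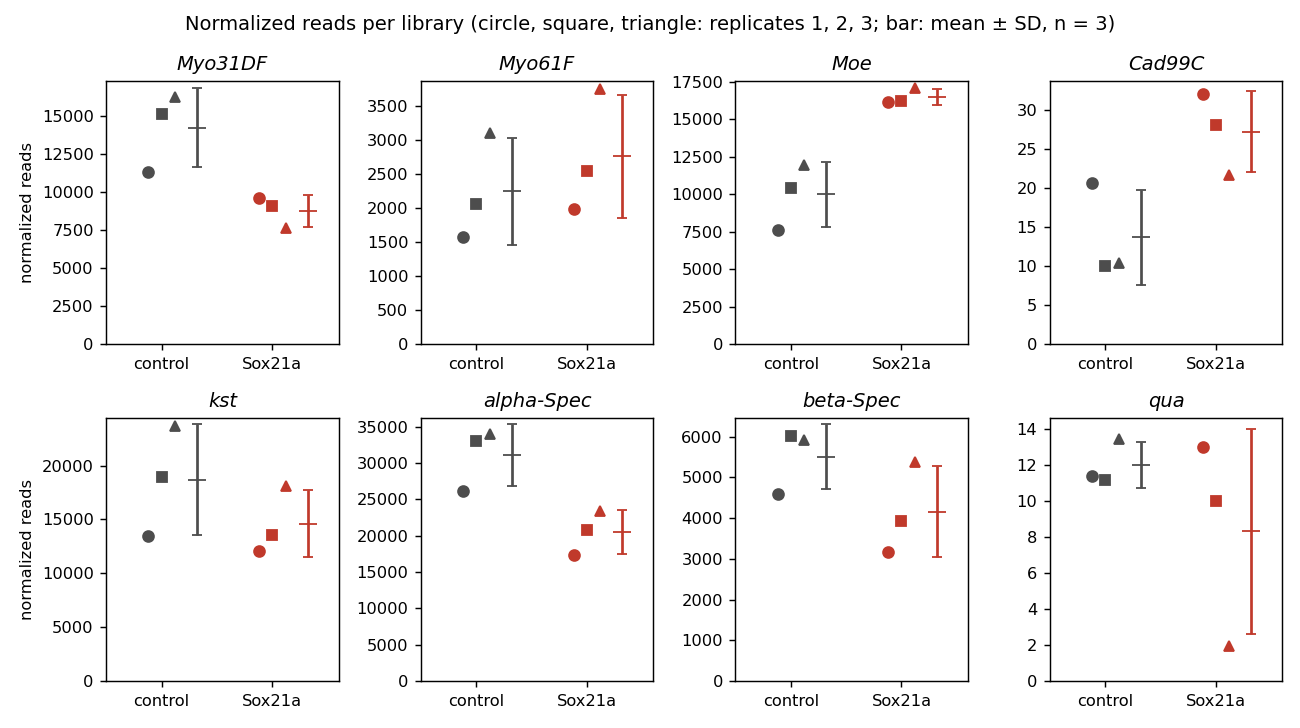
Normalized reads (vertical axis, from 0) of the 8 genes in each library, with control EBs in grey and Sox21a EBs in red, a marker shape for each replicate number, and bars for the mean ± SD (n = 3). Moe and Cad99C lay higher in every Sox21a library than in any control library, Myo31DF and alpha-Spec lay lower, and the other 4 genes overlapped.

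Myo31DF, once named Myo1A, encodes a class I myosin of the brush border, and its name is carried by a Gal4 driver widely used to mark enterocytes. The gene (FBgn0086347) lies on the minus strand of chromosome 2L from 10491814 to 10506779. Its normalized reads were 11293, 15146 and 16265 in control replicates 1, 2 and 3, and 9620, 9071 and 7619 in the Sox21a replicates. No Sox21a library reached the lowest control, which was replicate 1. The mean fell from 14235 ± 2608 to 8770.1 ± 1034 (SD, n = 3 per group), a fitted log2 change of -0.69 (SE of 0.19, 95% interval -1.15 to -0.23, adjusted p = 0.032, limma). In the fit with a replicate block the adjusted p was 0.058, so this call did not hold in the paired fit. It held only without control replicate 1 (0.0088) when 1 library was left out, the adjusted p being 0.095 without control replicate 2 or 3, and 0.064, 0.085 and 0.094 without Sox21a replicate 1, 2 and 3. Rescaling gave a log2 fold change of -0.88 (adjusted p = 0.023, and 0.0499 with the block). An antisense transcript, CR44224, shares 479 bases with the gene's span on the opposite strand and had 31.9 ± 6.30 normalized reads in control and 52.4 ± 8.72 in Sox21a EBs. Whether counting used strand is not given in the sources used here.

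Myo61F encodes the other class I myosin of the set, also known from the brush border. The gene (FBgn0010246) lies on the plus strand of chromosome 3L from 1318480 to 1329617. Control libraries gave 1567, 2058 and 3102 normalized reads, and Sox21a libraries 1980, 2537 and 3747. In both groups replicate 3 was the highest and replicate 1 the lowest, and the groups overlapped. The means were 2242 ± 784 and 2755 ± 903 (SD, n = 3 per group), with a log2 fold change of 0.30 (SE 0.32, 95% interval -0.45 to 1.06, adjusted p = 0.49, limma). In this unpaired fit the interval leaves room for a decrease as well as for a change of up to 2.08-fold. Each Sox21a library lay above the control library of the same number. With the replicate block the SE was 0.12 and the adjusted p 0.11 (limma). Rescaling together with the block gave a log2 fold change of 0.11 (adjusted p = 0.51, limma).

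Because the scaling of a library cancels within it, the ratio between the 2 class I myosins was taken library by library. The log2 ratio of Myo31DF to Myo61F was 2.85, 2.88 and 2.39 in the control libraries, a mean of 2.71 ± 0.27 (SD, n = 3). In the Sox21a libraries it was 2.28, 1.84 and 1.02, a mean of 1.71 ± 0.64 (SD, n = 3). Per kilobase of exon this is a mean ratio of 6.01 in control and 3.02 in Sox21a EBs, so Myo31DF outnumbered Myo61F in both. The difference was -0.99 on the log2 scale and the groups did not overlap, with p = 0.10 in an exact two-sided permutation test, the smallest p that 20 arrangements allow (0.2 after adjustment over 2 ratios). Same-numbered libraries differed by -0.57, -1.04 and -1.37, with p = 0.25 in the exact sign-flip test of the pairs.

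**Figure D2:**
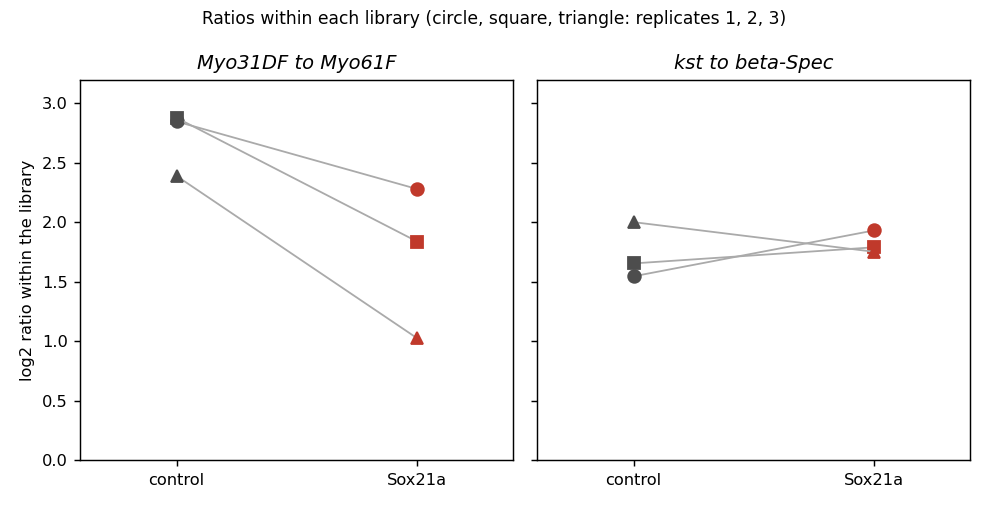
Log2 ratio within each library (vertical axis) of Myo31DF to Myo61F, left, and of kst to beta-Spec, right, in control (grey) and Sox21a (red) EBs, with lines joining libraries of the same replicate number. All 3 lines of the myosin ratio go down, with differences of -0.57 to -1.37, and those of the spectrin ratio cross.

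Moe encodes Moesin, the only member of the ezrin, radixin and moesin family in the fly, which links the plasma membrane to cortical actin once phosphorylated. The gene (FBgn0011661) lies on the minus strand of chromosome X from 8873012 to 8898332. Normalized reads of its Moe-RF transcript were 7621, 10388 and 11958 in control libraries, and 16153, 16191 and 17082 in Sox21a libraries. The Sox21a libraries lay close together and all above the controls. The mean rose from 9989 ± 2196 to 16475 ± 526 (SD, n = 3 per group), a fitted log2 change of 0.75 (SE 0.20, 95% interval 0.28 to 1.21, adjusted p = 0.025, limma). The other 4 Moe transcripts in the table, which can share its reads, had log2 fold changes of 0.75 to 0.79. The call was lost after rescaling (log2 fold change 0.55, adjusted p = 0.075) and without control replicate 2 (0.057) or Sox21a replicate 1 (0.0715), 2 (0.076) or 3 (0.072). It held without control replicate 1 (0.022) or 3 (0.024).

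Cad99C encodes the fly counterpart of protocadherin-15, known in ovarian follicle cells as a regulator of microvillus length. The gene (FBgn0039709) lies on the plus strand of chromosome 3R from 29841657 to 29854699. Its RNA was scarce, at 20.7, 10.05 and 10.3 normalized reads in the control libraries and 32, 28 and 21.6 in the Sox21a libraries. The highest control, replicate 1, nearly met the lowest Sox21a library, replicate 3. Counted as steps above the smallest value, these were 18, 7 and 8 in control and 30, 26 and 20 in Sox21a EBs. The more abundant dgt1, on the opposite strand, shares 5 bases with the gene's end and had 254 ± 67.8 normalized reads in control and 372 ± 36.4 in Sox21a EBs (log2 fold change 0.58, adjusted p = 0.078, limma), and its part in the Cad99C value was not tested. The mean rose from 13.7 ± 6.06 to 27.2 ± 5.22 (SD, n = 3 per group), a fitted log2 change of 0.998 (SE 0.30, 95% interval 0.30 to 1.70, adjusted p = 0.037, limma), which the log2(value + 1) scale understates at this level. The adjusted p was 0.079 after rescaling (log2 fold change 0.82), 0.029 with rescaling and the replicate block together, 0.089 with no filter and 0.068 with a limma trend. With 1 library left out it was 0.0038 without control replicate 1, 0.11 without control replicate 2 or 3, and 0.12, 0.098 and 0.054 without Sox21a replicate 1, 2 and 3.

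The spectrins moved down or did not pass the test. alpha-Spec encodes the alpha subunit that both beta spectrins share. The gene (FBgn0250789) lies on the minus strand of chromosome 3L from 1778485 to 1795328. Normalized reads of alpha-Spec were 26182, 32948 and 34039 in control and 17327, 20702 and 23407 in Sox21a libraries. The groups did not overlap, and replicate 1 was the lowest in both. The mean fell from 31056 ± 4257 to 20479 ± 3046 (SD, n = 3 per group), a fitted log2 change of -0.60 (SE of 0.19, 95% interval -1.04 to -0.17, adjusted p = 0.042, limma). After rescaling it was -0.80 (adjusted p = 0.016). With no filter the adjusted p was 0.058. With 1 library left out, the call held only without control replicate 1 (0.019), the adjusted p being 0.12 without control replicate 2 or 3, and 0.14, 0.11 and 0.0502 without Sox21a replicate 1, 2 and 3. The dlt gene, on the same strand, lies within this span and shares 5698 bases with it, so reads may be split between them. dlt had 498 ± 20.2 normalized reads in control and 446 ± 54.8 in Sox21a EBs (log2 fold change -0.16, adjusted p = 0.44, limma).

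kst encodes karst, the beta-heavy spectrin of the apical membrane. The gene (FBgn0004167) lies on the plus strand of chromosome 3L from 3336860 to 3368133. Normalized reads of kst were 13431, 18946 and 23695 in control and 12108, 13572 and 18124 in Sox21a libraries. Both groups spread widely, with replicate 3 the highest in each, and they overlapped. The means were 18691 ± 5137 and 14601 ± 3137 (SD, n = 3 per group), with a log2 fold change of -0.34 (SE 0.26, 95% interval -0.94 to 0.26, adjusted p = 0.33, limma). Each Sox21a library lay below the control library of the same number. With the replicate block the SE was 0.14 and the adjusted p 0.12 (limma). Rescaling together with the block gave a log2 fold change of -0.53 (adjusted p = 0.059, limma).

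beta-Spec encodes the conventional beta spectrin of the lateral and basal membrane. The gene (FBgn0250788) lies on the plus strand of chromosome X from 17657372 to 17669371. Its normalized reads were 4601, 6020 and 5918 in control and 3173, 3925 and 5381 in Sox21a libraries. Sox21a replicate 3 lay among the controls, and the other 2 Sox21a libraries lay below them. The means were 5513 ± 791 and 4160 ± 1122 (SD, n = 3 per group), with a log2 fold change of -0.43 (SE 0.23, 95% interval -0.97 to 0.11, adjusted p = 0.18, limma). With rescaling and the replicate block together the log2 fold change was -0.62 and the adjusted p 0.039, while rescaling alone gave 0.068 and the block alone 0.091.

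Apical and basolateral beta spectrin were set against each other by the log2 ratio of kst to beta-Spec. It was 1.55, 1.65 and 2.00 in control libraries (mean 1.73 ± 0.24, SD, n = 3) and 1.93, 1.79 and 1.75 in Sox21a libraries (mean 1.82 ± 0.09, SD, n = 3). The groups overlapped, and the difference was 0.09 (p = 0.6, exact two-sided permutation test, and 0.6 after adjustment over 2 ratios). Without control replicate 1 the difference was -0.0032. The level of alpha-Spec per kilobase over the sum of both beta spectrins per kilobase averaged 1.82 ± 0.18 in control and 1.55 ± 0.14 in Sox21a EBs (SD, n = 3 per group). These groups overlapped, with control replicate 3 at 1.63 and Sox21a replicate 2 at 1.66, and the difference was not tested. The 3 spectrins varied together over the 6 libraries, with Pearson's r of 0.84 between alpha-Spec and kst, 0.92 between alpha-Spec and beta-Spec, and 0.89 between kst and beta-Spec. These 6 points share their libraries and the 2 groups, so the values are a description.

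qua encodes quail, a villin-like protein known from the actin bundles of ovarian nurse cells. The gene (FBgn0003187) lies on the minus strand of chromosome 2L from 17486806 to 17497208. Its normalized reads were 11.4, 11.2 and 13.4 in control and 13, 10 and 1.97 in Sox21a libraries. The value of Sox21a replicate 3 is the smallest that its library can have, and the other 2 Sox21a libraries lay about among the controls. The means were 12 ± 1.26 and 8.32 ± 5.70 (SD, n = 3 per group), with a log2 fold change of -0.75 (SE 0.54, 95% interval -2.02 to 0.51, adjusted p = 0.31, limma). Without Sox21a replicate 3 the log2 fold change was -0.06. In the other 5 libraries qua lay between 10 and 13 steps.

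**Figure D3:**
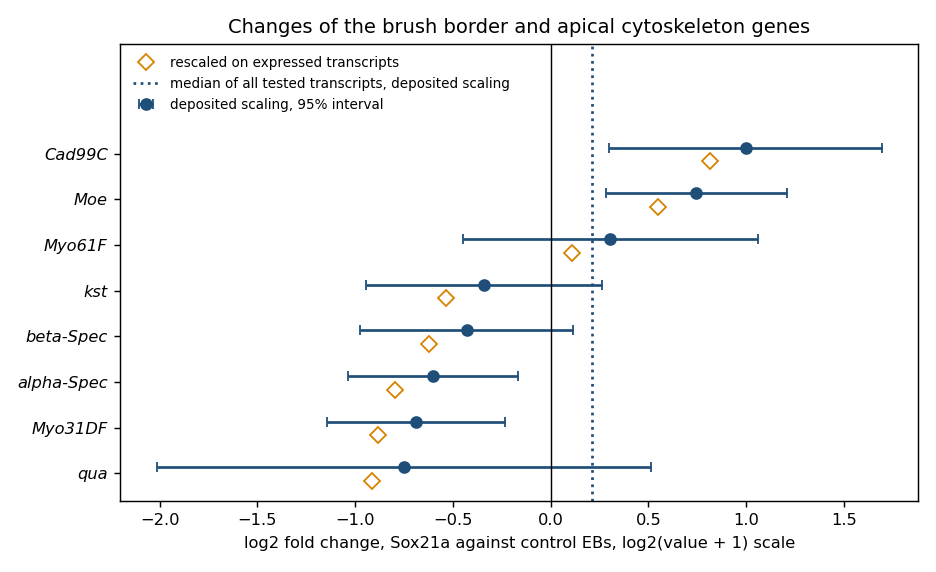
Log2 fold change of Sox21a against control EBs on the log2(value + 1) scale (horizontal axis) for the 8 genes, with filled points and 95% intervals for the deposited scaling and open diamonds after rescaling. The intervals of Moe and Cad99C lie above 0 and those of Myo31DF and alpha-Spec below it, and rescaling moves the genes down, by 0.19 for most of them. The dotted line marks the median of all tested transcripts, 0.21.

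Levels of different genes were compared as normalized reads per kilobase of exon. The messenger RNA had been amplified, and whether reads still scale with transcript length was not tested, so the order of genes is approximate. In control EBs Myo31DF (3805 ± 697, SD, n = 3), alpha-Spec (3778 ± 518) and Moe (3422 ± 752) came first, and their libraries overlapped, from 2611 to 4348. kst followed at 1389 ± 382, wholly below those 3. beta-Spec (719 ± 103) and Myo61F (651 ± 228) came next and overlapped each other. qua (3.67 ± 0.39) and Cad99C (2.36 ± 1.05) were last and also overlapped. In Sox21a EBs Moe came first at 5644 ± 180, with its lowest library at 5534. alpha-Spec (2491 ± 371) and Myo31DF (2344 ± 276) were next and overlapped, with their highest library at 2847. The order then ran through kst (1085 ± 233), Myo61F (799 ± 262) and beta-Spec (542 ± 146), which overlapped in turn, to Cad99C (4.70 ± 0.90) and qua (2.55 ± 1.75), which overlapped too. Within each control library Moe lay below both Myo31DF and alpha-Spec, although the ranges overlapped, and in each Sox21a library it lay above both.

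**Figure D4:**
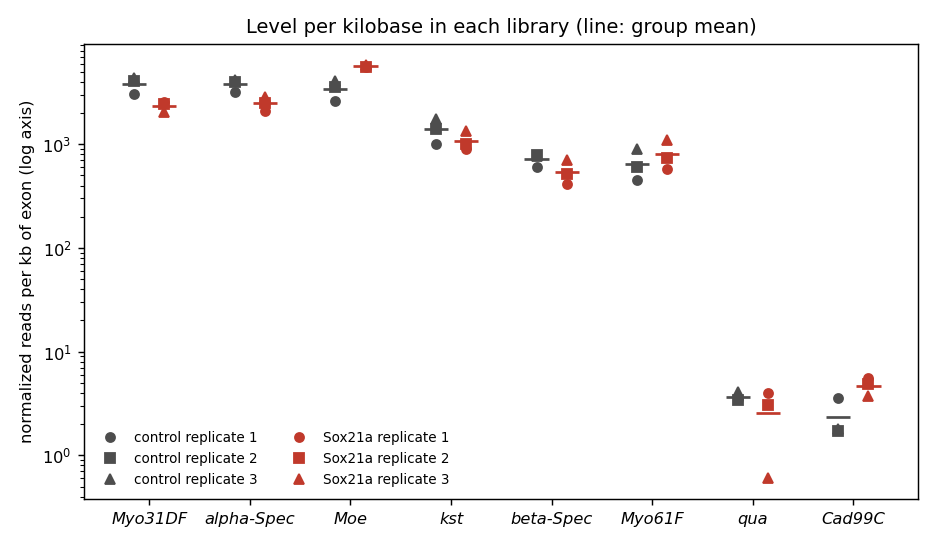
Normalized reads per kilobase of exon (vertical axis, log scale) of the 8 genes in each library, control in grey and Sox21a in red, with a line at each group mean. Moe, Myo31DF and alpha-Spec overlap in control EBs and Moe stands above the others in Sox21a EBs, while qua and Cad99C lie under 6 in every library.

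Of genes outside the set, the 3 whose log2 values most resembled those of alpha-Spec, the member with the highest mean, were looked for among 7353 genes over the 6 libraries. They were trio (Pearson's r = 0.9985), Gpdh, glycerol-3-phosphate dehydrogenase (0.9976), and tlk, a kinase of the Tousled family (0.9967). trio went from 15281 ± 2264 to 10196 ± 1468 normalized reads (SD, n = 3 per group). With 6 points in 2 groups, such values describe likeness only.

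The wider actin and membrane cytoskeleton was read from 6 lists of 69 related genes, of which 59 were tested, 11 were higher (18.6%), 6 were lower (10.2%) and 42 were not called in Sox21a EBs. Over all 9571 genes tested, 24.2% were higher and 10.2% lower. The median log2 fold change of the 59 was 0.12, beside 0.24 over all genes tested. After rescaling 8 of the 59 were higher and 12 lower, with a median of -0.08 beside 0.05, where 17.2% of all genes tested were higher and 15.1% lower. With the replicate block the shares of all genes were 26.0% and 10.8%. The counts of each list below are to be read beside these shares.

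**Figure D5:**
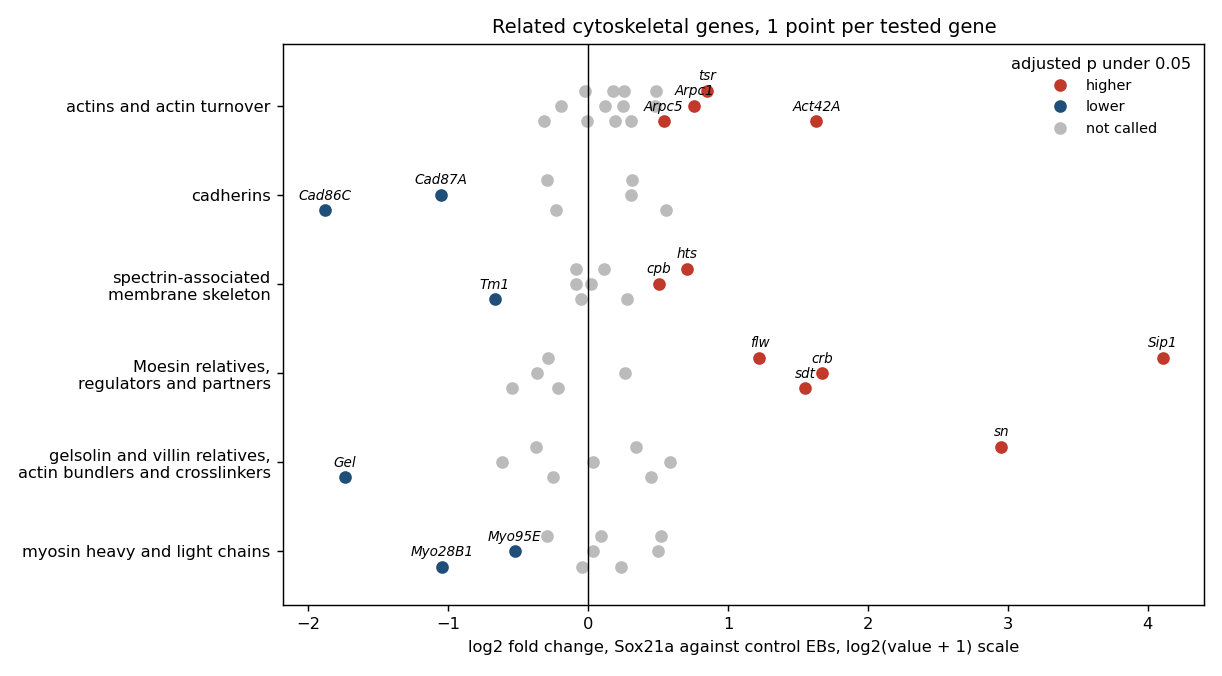
Log2 fold change of Sox21a against control EBs (horizontal axis) of each tested gene of the 6 related lists (rows), with genes called higher in red, lower in blue and the rest in grey. Most points lie near 0, and Sip1, sn, Gel and Cad86C lie farthest from it.

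Among 12 other myosin heavy and light chains, 9 were tested, 0 were higher and 2 lower, with a median log2 fold change of 0.03. Myo28B1, a class VII myosin, fell from 18672 ± 1565 to 9011 ± 234 normalized reads (SD, n = 3 per group), a fitted log2 change of -1.05 (SE 0.14, adjusted p = 0.0019, limma), and the call held with any 1 library left out. Myo95E, an unconventional myosin, fell from 2469 ± 286 to 1713 ± 202 (SD, n = 3 per group), by 0.53 on the log2 scale (adjusted p = 0.048, limma). Its adjusted p was between 0.023 and 0.16 with 1 library left out, and the call held only without control replicate 1. With the replicate block 1 of the 9 was higher (didum, a class V myosin, named after its values were seen, adjusted p = 0.035) and 2 were lower.

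Of 9 gelsolin and villin relatives, actin bundlers and crosslinkers, all tested, 1 was higher and 1 lower, with a median log2 fold change of 0.03. sn encodes fascin, a bundler of parallel actin filaments, and rose from 24.6 ± 3.92 to 199.7 ± 49.9 normalized reads (SD, n = 3 per group), a fitted log2 change of 2.95 (SE 0.22, adjusted p = 0.00015, limma). Gel encodes gelsolin, which severs and caps filaments, and fell from 766 ± 59.8 to 232 ± 49.8 (SD, n = 3 per group), a fitted log2 change of -1.74 (SE 0.19, adjusted p = 0.00068, limma). Both calls held after rescaling, with the block and with any 1 library left out. Rescaled, 1 was higher and 3 lower, and with the block 1 was higher and 2 lower.

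Of 9 relatives, regulators and partners of Moesin, all tested, 4 were higher and 0 lower, with a median log2 fold change of 0.26. Sip1, the fly counterpart of the scaffold NHERF1 that binds Moesin, rose from 53.8 ± 26.9 to 878 ± 78.5 normalized reads (SD, n = 3 per group), a fitted log2 change of 4.10 (SE 0.32, adjusted p = 0.00016, limma). Its control libraries held 37.2, 84.8 and 39.3 and its Sox21a libraries 968, 843 and 823, far apart in every case. crb, the apical determinant Crumbs, rose from 1019 ± 334 to 3122 ± 134 and sdt, the scaffold Stardust that binds Crumbs, from 272 ± 38.4 to 794 ± 61.3 (SD, n = 3 per group). Their log2 fold changes were 1.67 (adjusted p = 0.0029) and 1.55 (adjusted p = 0.00066, limma). flw, a catalytic subunit of protein phosphatase 1 that acts on Moesin, rose from 2338 ± 416 to 5415 ± 378, by a log2 fold change of 1.22 (adjusted p = 0.0022, limma). These 4 calls held after rescaling, with the block and with any 1 library left out, and rescaling added 3 genes that were lower and the block 1.

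The 9 genes of the spectrin-associated membrane skeleton held 2 that were higher and 1 that was lower, with a median log2 fold change of 0.02. hts, which encodes adducin, rose from 3497 ± 825 to 5598 ± 354 normalized reads (SD, n = 3 per group, with a log2 change of 0.70, adjusted p = 0.035, limma). Tm1, a tropomyosin, fell from 36994 ± 6693 to 23246 ± 3880 (log2 fold change -0.67, adjusted p = 0.041), and cpb, a subunit of the capping protein, rose from 4142 ± 442 to 5881 ± 554 (log2 fold change 0.51, adjusted p = 0.044). With 1 library left out the adjusted p ranged from 0.027 to 0.099 for hts, from 0.017 to 0.13 for Tm1 and from 0.054 to 0.13 for cpb, whose call was lost in each case. hts was called only without control replicate 1 or 3, and Tm1 only without control replicate 1 or Sox21a replicate 3. After rescaling 0 were higher and 1 lower.

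Of 14 other cadherins, only 7 were expressed enough to be tested, and 0 were higher and 2 lower, with a median log2 fold change of -0.23. Cad86C fell from 43.8 ± 5.31 to 11.3 ± 2.40 normalized reads (SD, n = 3 per group), a fitted log2 change of -1.88 (SE 0.19, adjusted p = 0.00053, limma). Cad87A fell from 428 ± 24.0 to 206 ± 15.7 (SD, n = 3 per group), a fitted log2 change of -1.05 (SE 0.15, adjusted p = 0.0019, limma). Both calls held with any 1 library left out. After rescaling 0 were higher and 3 lower. Of the cadherins not tested, Cad89D (2.12 ± 0.09 and 15.2 ± 8.94) and Cad96Cb (3.50 ± 2.34 and 14.3 ± 2.61) lay higher in every Sox21a library than in any control. Cad89D was at the smallest value in every control library and only at the detection limit in Sox21a replicate 2. ds was at the smallest value of every library. That value differs between libraries with the size factor, so ds shows no difference in level. The rest of the cadherins not tested overlapped. These genes were named after their values were seen.

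All 16 genes of actins and actin turnover were tested, and 4 were higher and 0 lower, with a median log2 fold change of 0.25. Act42A, a cytoplasmic actin, rose from 28134 ± 3039 to 87432 ± 12968 normalized reads (SD, n = 3 per group, with a log2 change of 1.63, adjusted p = 0.00060, limma), although near-identical actin genes can share reads and make its level uncertain. tsr, the fly cofilin, rose from 46227 ± 6222 to 82824 ± 5220.2 (log2 fold change 0.85, adjusted p = 0.0075). Arpc1, a subunit of the Arp2/3 complex that nucleates branched filaments, rose from 696 ± 62.8 to 1175 ± 57.9 (log2 fold change 0.76, adjusted p = 0.0081). Arpc5, another of its subunits, rose from 3281 ± 515 to 4735 ± 137 (log2 fold change 0.54, adjusted p = 0.041). The Arpc5 call was lost after rescaling (adjusted p = 0.098) and held only without control replicate 1 when 1 library was left out (0.011 to 0.12). With the block 6 were higher.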

How the data were processed

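The authors mapped paired reads with Bowtie2 to release 6.02 of the genome, counted pairs in exons and deposited a signal per transcript and library, namely reads divided by a size factor. The Bowtie2 version and the annotation are not given in the sources used here. The messenger RNA had been amplified, a step that can favour some transcripts, so limits from steps cover counting error only. The smallest value of each library is 2 steps, and whether 2 was added or set as a floor is not given. A second deposited table holds the authors' own comparison (group means, fold changes and p-values) and was not used. Per-library columns left out numbered 0.

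After log2(value + 1) transformation, the 11400 transcripts (9571 genes) averaging 10 or more in the 6 libraries were tested in R 4.3.3 with limma 3.58.1 (lmFit, then eBayes with no trend), with Benjamini-Hochberg adjustment over all of them and a threshold of 0.05. All 8 members passed the filter, qua and Cad99C with means near it. For scarce transcripts this scale makes fold changes too small. Ratios were tested by exact permutation of the libraries. Tables and plots were made in Python 3.11.15 with scipy 1.17.1, pandas 2.3.3, matplotlib 3.10.9 and numpy 2.4.6. Gene positions are from Ensembl release 115 of BDGP6, a Release 6 assembly as in the methods. The limma script was tested on simulated data.

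The replicate numbers come from the sample labels. Deviations from the group means of same-numbered control and Sox21a libraries correlated at 0.33, 0.25 and 0.21 for replicates 1, 2 and 3 over 8781 transcripts with a mean of at least 100 (0.17, 0.13 and 0.12 over all 11400), each over the minimum of 0.1, so that the numbers were taken to pair the libraries and a fit with the replicate block was made.

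Genes named are the 8 members, at most 4 called genes of largest change in each related list, and the 3 genes most like the member of highest mean. To these, didum, ds, Cad89D and Cad96Cb were added after their values were seen. The members, the lists and the cell type markers were chosen with earlier results of these data known. Alternatives were pseudocounts of 0.1 and 10, no filter, a mean of at least 100, the replicate block, rescaling by the median ratio of expressed transcripts, subtraction of the smallest value, a limma trend, a stricter threshold of 0.01, a minimum of 2-fold, the sum over a gene's transcripts, and each library left out. Rescaling together with the block was added after the data were seen.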

Additional observations from a re-analysis of the deposited data

How the results depend on the processing

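Over 126 refits of the 8 genes' log2 fold changes, 0 turned direction, 98 kept their side of the threshold, 27 lost a call and 1 gained one. The count of members higher, 2 as reported, was 1 with no filter, 1 with a mean of at least 100 (which leaves out Cad99C and qua), 1 with a limma trend, 0 after rescaling, 1 after rescaling with the replicate block, and 0 at an adjusted p under 0.01 or with a change of at least 2-fold. The count of members lower, 2 as reported, was 0 with no filter, 1 with the replicate block, 3 after rescaling with the block, and 0 at an adjusted p under 0.01 or with a change of at least 2-fold. With 1 library left out, both counts ranged from 0 to 2, and all 4 calls held without control replicate 1 only. Fewer libraries are fitted there, and otherwise the cause was not tested. The replicate block alone changed no member's call but that of Myo31DF.

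Of all tested transcripts, 2693 were higher and 1293 lower. These were 1308 and 597 at an adjusted p under 0.01, 1399 and 698 with a change of at least 2-fold, 1892 and 1916 after rescaling, and 1891 and 1948 after rescaling with the replicate block. With 1 library left out they ranged from 1651 to 3424 and from 792 to 1627. The difference in the log2 ratio of Myo31DF to Myo61F ranged from -1.28 to -0.65 with 1 library left out, and that of kst to beta-Spec from -0.0032 to 0.22, turning direction without control replicate 1. The paired test of the replicate block gave p = 0.25 and p = 0.75 for these ratios (exact sign-flip test). Depth limits the values of Cad99C and qua. The 2 planned tests on counts were not run, since every value is a whole number of steps but whether 2 steps were added or set as a floor is not known, so that the reads themselves were not recovered.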
